A study of Mus musculus with 12 samples.

Results

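The comparison described here is that of Bcl6 knockout (KO) with control in CD25-positive fetal thymocytes that had received no stimulus. It holds 4 of the 12 RNA libraries of the series, 2 of control and 2 of KO cells, chosen by their titles, genotypes and culture labels, and covers all genes of the expression table. All 4 came from C57BL/6 embryos of stage E16.5 that lack Rag1 (Rag1KO) and have loxP sites around both copies of Bcl6 (Bcl6fl/fl). The treatment protocol names stage E17.5 instead. Control embryos were LckCre- and KO embryos LckCre+, a transgene that drives Cre recombinase in the T lineage from a promoter of Lck. Presence of Cre and loss of Bcl6 cannot be told apart in this design. Nothing in the labels tells if libraries of the same genotype came from separate embryos, pools of embryos or cultures, so p-values measure only the spread between these libraries, which may be technical. The other 8 libraries are of CD8 immature single-positive (ISP) and CD4 CD8 double-positive (DP) cells, from thymi held for 2 days with an antibody to CD3. They are used where populations are compared, labels are checked or levels of single genes are set beside CD25, and in fits of all 12 libraries. For 6 of those 8 the sequencing library name and the title disagree on population or genotype, and groups follow the titles. The names and titles of the CD25 libraries match.

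BCL6 is a zinc finger repressor that silences genes by recruiting corepressors such as NCOR and BCOR, and its best studied roles are in follicular helper T cells and B cells of the germinal centre. Its DNA motif resembles that of STAT factors, which carry signals from interferons and other cytokines to the nucleus. At the CD25-positive stage, thymocytes are committed to the T lineage, depend on Notch and interleukin 7, and rearrange the T cell receptor beta locus. Without RAG1 no beta chain can be made, so the cells wait at this stage. The question is what loss of Bcl6 does to the transcriptome before any pre-TCR signal.

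Values are RPKM (read density, scaled to gene length and to library depth) as deposited. Each CD25 library held 10531581 to 13843254 reads, as recovered from the values, and 10487 to 10568 genes reached 1 RPKM. Intervals from reads cover counting error only. Tests used limma on log2(RPKM + 1) over the 10636 genes that reached 1 RPKM in 2 or more of the 4 libraries. A gene is said to pass when its adjusted p (Benjamini-Hochberg, over all of these) is under 0.05. On this scale, differences of low genes are understated. Between genotypes the root mean square difference of the log2 values was 0.225 to 0.249 per pair of libraries, against 0.229 between the controls and 0.210 between the KO libraries, so the genotypes were hardly farther apart than libraries of 1 genotype. With 2 libraries a side, the 95% interval of the difference spanned less than a 2-fold change in either direction for 98.1% of the genes tested, with a median half-width of 0.23 on the log2 scale.

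The levels of marker genes in the 8 anti-CD3 libraries were read against both sets of labels. Cd4, the coreceptor gene that DP cells have and ISP cells lack at the surface, ranged by title from 13.9 to 20.5 RPKM over the ISP and from 191 to 344 over the DP libraries. Cd8a and Cd8b1, which encode the chains of CD8, were at 230 to 302 and 520 to 715 RPKM by title in ISP and at 774 to 873 and 2042 to 2506 in DP. By library name Cd4 ran from 18.8 to 338 RPKM in ISP and from 13.9 to 344 in DP, so the populations in these names did not separate by coreceptor. The genotypes in these names did, with Cd4 at 13.9 to 20.5 RPKM in the 4 libraries named control and 191 to 344 in the 4 named KO. Those named control are thus those titled ISP, and those named KO are those titled DP. In the anti-CD3 cells, KO minus control by library name is therefore titled DP minus titled ISP. Gh, the growth hormone gene, was at 0 in the 4 anti-CD3 libraries titled control and at 1.69 to 10.8 RPKM in the 4 titled KO, whereas by library name 2 of 4 libraries of each genotype were at 0. These genes thus separated the libraries as the titles do. Groups by library name are given below only to show how values depend on the labels, not as a second estimate of the genotype difference. Ddx3y, a gene of the Y chromosome, also differed by title, at 7.28 to 56.3 RPKM in the anti-CD3 controls against 0 to 0.0979 in the anti-CD3 KO libraries. In ISP and DP cells, genotype and the amount of RNA from male cells therefore cannot be told apart.

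Il2ra, which encodes CD25, stood at 538 RPKM in both control libraries and at 603 and 564 in the KO libraries (limma log2 difference 0.12, SE 0.06, adjusted p = 0.634). Rag1 was at 51.3 to 55.3 RPKM in all 4 libraries, although the labels give the embryos as Rag1KO. Levels summed over a whole gene cannot tell an intact transcript from a deleted one. Bcl6 itself was low at this stage, at 1.82 and 1.49 RPKM in control and 2.01 and 1.63 in KO libraries, which is 57 to 86 reads per library. The genotypes overlapped (log2 difference 0.09, SE 0.16, limma adjusted p = 0.919, 95% interval -0.30 to 0.47). For the same reason as with Rag1, the value does not check the deletion. All 10 markers fixed for CD25-positive thymocytes were above 1 RPKM in every library, and their sum was 3110 and 3328 RPKM in the controls against 3239 and 3200 in the KO libraries. The defining markers of B cells (Cd79a, Pax5, Ebf1), erythroid cells (Hba-a1, Hbb-bs) and mesenchyme (Col3a1, Pdgfra) were at 0 in all 4. In the wider lists of these types, the only tested mesenchyme gene, the growth factor receptor gene Pdgfrb, was nevertheless at 14.9 and 15.1 RPKM in control and higher at 20.5 and 18.0 in KO libraries (log2 difference 0.34, unadjusted p = 0.00670, limma adjusted p = 0.368). Epor, the erythropoietin receptor gene and the only tested one of the erythroid and platelet list, was at 3.35 and 3.86 against 2.46 and 2.64 (-0.37, adjusted p = 0.466). In CD25 cells Ddx3y was at 19.8 and 10.8 RPKM in control and 7.61 and 18.7 in KO libraries, and Xist from the inactive X chromosome at 16.6 and 17.3 against 17.48 and 9.79, so each library held RNA of both kinds and neither gene separated the genotypes.

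**Figure D1:**
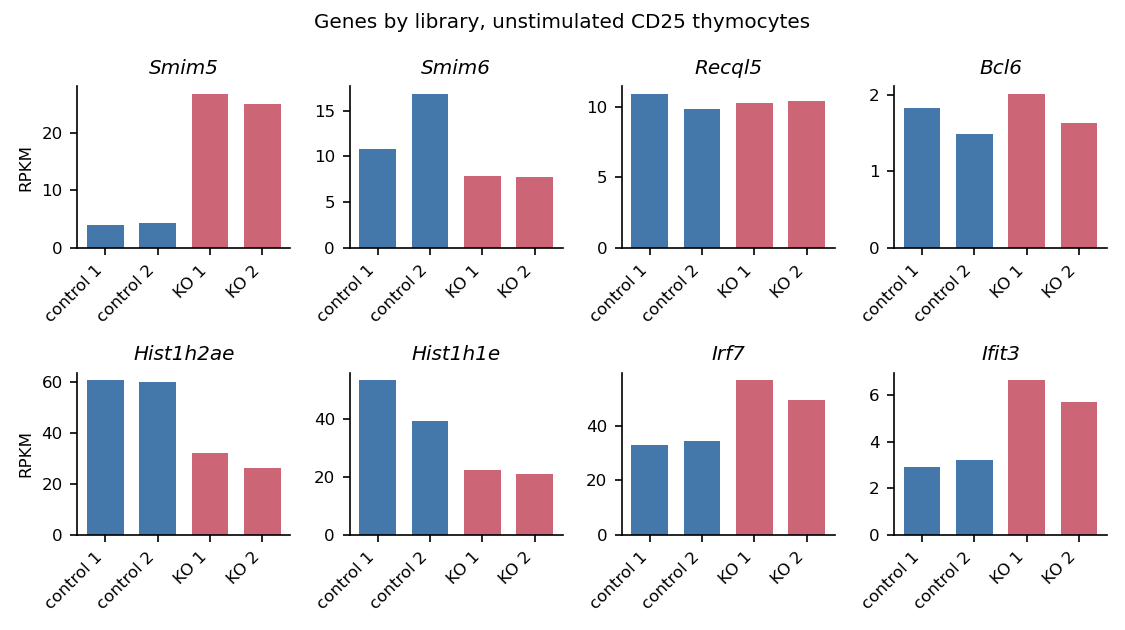
Deposited level (RPKM, y axis from 0) of 8 genes in each of the 4 CD25 libraries (x axis), control in blue and KO in red, with 1 bar per library and no error bar. Smim5 stands at 26.7 and 24.9 in the KO libraries against 3.93 and 4.39 in control, while Recql5, which overlaps it, and Bcl6 stand at similar levels in both genotypes.

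Of the 10636 genes tested, 2 passed (0.0188%), 1 higher (0.0094%) and 1 lower (0.0094%) in KO. At an unadjusted p under 0.05 there were 972 (9.14%), 509 higher (4.79%) and 463 lower (4.35%). Both KO libraries lay above both controls for 2316 genes (21.8%) and below both for 1961 (18.4%). The difference was above 0 for 52.3% of the genes, with a median of 0.01. These counts depended on single libraries. Without 1 of the 4, between 4 (without control 1 or control 2) and 93 genes (without KO 2) passed, with 59 without KO 1. At an unadjusted p there were 495 without KO 1 and 1463 without control 1. In such fits the lone library is assumed to vary like the other genotype. A log2 difference of at least 1 in either direction was seen in 44 genes, 4 of them with a mean of at least 20 RPKM. The shares in this paragraph are the background for each count of genes below.

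**Figure D2:**
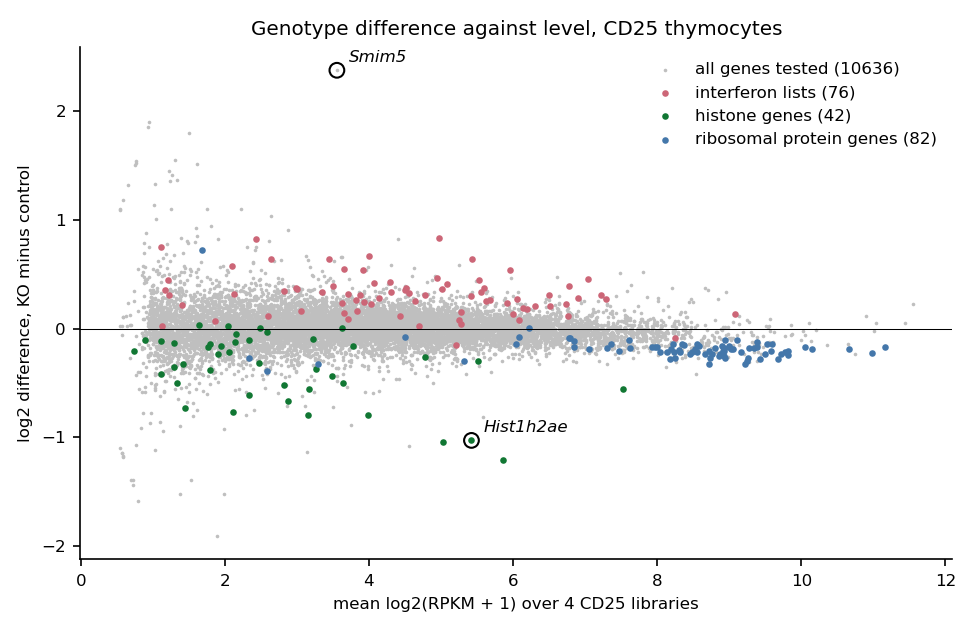
Log2 difference between KO and control (y axis) against the mean log2(RPKM + 1) over the 4 CD25 libraries (x axis), with 1 point per gene. The 2 genes that passed are circled, and the interferon lists (red) lie mostly above 0 and the histone (green) and ribosomal protein genes (blue) mostly below.

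Smim5, which encodes a small integral membrane protein, was the gene that rose. It was at 3.93 and 4.39 RPKM in control and at 26.7 and 24.9 in KO libraries, from 53 and 48 against 274 and 315 reads. The genotypes did not overlap. The means were 4.16 ± 0.328 and 25.8 ± 1.29 (SD, n = 2), 6.21-fold apart (log2 difference 2.38, SE 0.10, limma adjusted p = 1.78e-04). When all 12 libraries shared 1 estimate of the spread the call was lost (adjusted p = 0.247 with groups by title and 1 by library name). In the anti-CD3 cells, with groups by title, Smim5 was at 14.9 and 6.75 RPKM in ISP control and 4.05 and 15.9 in ISP KO libraries, and at 16.8 and 11.7 in DP control and 9.91 and 30.1 in DP KO libraries, so the genotypes overlapped in both populations. The difference in CD25 minus that in ISP was 2.64 (adjusted p = 0.312) and minus that in DP 2.08 (adjusted p = 0.0941), neither of which passed. With groups by library name these were 1.59 (adjusted p = 0.154) and 1.74 (adjusted p = 0.118).

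Smim5 lies on chromosome 11 at 115899966 to 115906269 (GRCm38, plus strand), inside the gene body of Recql5, a DNA helicase gene on the other strand at 115892595 to 115933477. Nothing in the sources used here says whether reads were assigned by strand, so reads of these genes may have been mixed. Recql5 was at 10.9 and 9.82 RPKM in control and 10.3 and 10.4 in KO libraries (log2 difference 0.00, overlapping). Smim6, a similar small gene on the plus strand at 115912017 to 115913920, also lies inside Recql5, so the same limit holds for its reads. Smim6 went the other way from Smim5, with 10.8 and 16.8 RPKM in control and 7.90 and 7.70 in KO libraries (log2 difference -0.72, unadjusted p = 0.00405, limma adjusted p = 0.321). Of 34 other tested genes within 500000 bases of Smim5, 3 had an unadjusted p under 0.05, none passed, and their differences ran from -0.72 to 0.23 with a median of -0.04. Besides Smim6 these were Nt5c (-0.23), a nucleotidase gene, and Unc13d (0.23), which primes cytotoxic granules for release.

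In CD25 cells Gh was below the filter and was not tested. It had 0 reads in both control libraries and 8 and 10 reads in the KO libraries, and was the only gene with 0 reads in both libraries of 1 genotype and at least 5 in both of the other. With 3 reads taken as the limit for the controls together, it was at least 6.40-fold higher in KO. Whether these reads go with the Cre transgene or with loss of Bcl6 cannot be told apart in this design. The genotypes were separated by title in the anti-CD3 libraries too, as given above.

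The gene that fell was Hist1h2ae, a replication-dependent histone H2A gene on chromosome 13 (23570517 to 23571220, minus strand). It was at 60.7 and 59.9 RPKM in control and at 32.1 and 26.3 in KO libraries, without overlap (log2 difference -1.03, SE 0.10, limma adjusted p = 0.0434). The call was lost without control 1 (adjusted p = 0.113) or control 2 (0.096), and with a pseudocount of 0.1 (0.0545), no filter (0.121), quantile normalization (0.0691), no trend of the spread (0.113) or the dependence on gene length removed (0.0680). Histone genes of this kind supply new nucleosomes in S phase, and their mRNA ends in a stem loop instead of a poly(A) tail. Copies share much of their sequence, so the value of any 1 of them is uncertain. Hist1h1e, a linker histone gene, was at 53.5 and 39.3 RPKM in control and 22.4 and 20.9 in KO libraries (log2 difference -1.05, SE 0.13, adjusted p = 0.118). Hist2h4 (9.80 and 11.9 against 5.73 and 5.81), Hist1h2ab (20.1 and 19.6 against 12.7 and 9.57) and Hist1h4d (251 and 196 against 143 and 159) did not overlap between genotypes either and did not pass.

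As a group, the histone genes were lower in KO. Of 42 tested, 19 were lower and 0 higher at an unadjusted p under 0.05 (all genes, 4.35% lower), 23 had both KO libraries below both controls, and the median difference was -0.31 (all genes, 0.01). Without control 1 the count was 12 of 40. The spread among members was wide, from -1.21 for Hist1h1b, where control 1 (134 RPKM) and control 2 (56.4) differed by more than control 2 and the KO libraries (35.1 and 39.1), to 0.03 for Hist2h3b. Rn45s, the precursor of ribosomal RNA, also lacks a poly(A) tail and was lower too, at 18.9 and 16.95 against 12.1 and 11.2 RPKM (log2 difference -0.59, SE 0.09, limma adjusted p = 0.142). S phase genes with poly(A) tails gave other values. Of 24 tested, 0 had an unadjusted p under 0.05 in either direction and the median was 0.00, with Pcna, the replication clamp, at 255 and 254 against 233 and 235 RPKM, and Slbp, which binds the histone stem loop, at 153 and 168 against 180 and 165. Whether capture of RNA without a tail differed between libraries was not tested.

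Interferon-stimulated genes stood higher in KO as a group. Cells switch them on when interferon at its receptor activates STAT and IRF factors. Of 76 tested genes in the lists of sensing and signalling, antiviral effectors and inducible GTPases, 74 had a difference above 0 (all genes, 52.3%), and 64 had both KO libraries above both controls (all genes, 21.8%). At an unadjusted p under 0.05, 50 were higher and 0 lower (all genes, 4.79% and 4.35%), and none of them passed after adjustment over all genes. The median difference was 0.31, which is 1.24-fold on the scale of RPKM + 1. Libraries were not alike within KO. The median deviation of the 76 genes from their own mean was -0.16 in control 1, -0.15 in control 2, 0.21 in KO 1 and 0.07 in KO 2. Without KO 1 the count at an unadjusted p under 0.05 was 25 of 75 instead of 50 of 76, with a median of 0.22, and 253 of all 10497 genes were then higher. In the other fits that leave out 1 library it was 45 to 49.

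Many promoters of the genes that follow hold a sequence feature of genes that respond to interferon. The interferon lists were made of such genes, and the search did not use the genotype difference. The shares below therefore describe the lists and say nothing about the effect of the KO. A form of the interferon-stimulated response element, GAAA followed by any 2 bases and a further GAAA, was searched on both strands in the 250 bases before the gene start, in promoters from RefSeq (GRCm38.p6). It was found in the promoters of 936 of the 27025 genes of the promoter table (3.46%) and of 3.40% of the 8110 genes tested here that have an entry in it. Of antiviral effectors 15 of 31 with a promoter entry had it (48.4%), of the inducible GTPases 8 of 8, of sensing and signalling genes 2 of 16, and of MHC class I genes 2 of 13. The 200 bases before the start are printed for 4 members from the 2 lists richest in the motif, with matches in capitals.
Ifit3 (chr19:34583329-34583528, plus strand): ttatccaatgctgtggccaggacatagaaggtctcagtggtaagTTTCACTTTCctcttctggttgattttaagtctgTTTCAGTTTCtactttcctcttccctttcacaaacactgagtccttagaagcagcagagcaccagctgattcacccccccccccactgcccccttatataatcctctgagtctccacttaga
Oas1a (chr5:120907526-120907725, minus strand): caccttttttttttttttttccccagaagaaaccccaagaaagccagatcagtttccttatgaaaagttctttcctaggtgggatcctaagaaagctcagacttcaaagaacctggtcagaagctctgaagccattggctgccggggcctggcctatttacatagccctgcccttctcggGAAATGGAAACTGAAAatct
Irgm1 (chr11:48871421-48871620, minus strand): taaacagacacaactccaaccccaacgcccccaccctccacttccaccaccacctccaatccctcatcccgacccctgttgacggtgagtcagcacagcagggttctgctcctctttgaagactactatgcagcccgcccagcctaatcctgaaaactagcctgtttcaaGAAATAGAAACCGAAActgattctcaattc
Gbp3 (chr3:142559844-142560043, plus strand): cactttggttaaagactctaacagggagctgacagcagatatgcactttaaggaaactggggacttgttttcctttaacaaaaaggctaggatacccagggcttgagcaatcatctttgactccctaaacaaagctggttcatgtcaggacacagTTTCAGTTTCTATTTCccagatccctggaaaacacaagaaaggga

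Each of the 4 holds 2 matches, which overlap by 4 bases in Oas1a, Irgm1 and Gbp3 and stand apart in Ifit3. Gbp3 has a second start in the table whose promoter holds none. The letters TTCCNNGAA, a form that both STAT factors and BCL6 can bind, were found on either strand in 4.74% of all promoters, in 5 of 8 of the inducible GTPases, 4 of 31 effectors, 2 of 16 sensing genes and 1 of 14 genes known as BCL6-repressed. A match is a description of the letters, not evidence of binding.

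Of 21 interferon ligand genes in the table, 20 were listed at 0 in all 4 libraries. A listed 0 need not mean that no RNA was there, since 11 of 68 histone genes, among them the near copies Hist2h2aa1 and Hist2h2aa2, and the class I genes H2-Q6 and H2-Q7 were listed at 0 too, and how reads shared by near copies were counted is not given in the sources used here. The exception was Ifng, at 0.173 and 0.285 RPKM in control and 0.456 and 0.123 in KO libraries. Receptor genes were present, with Ifnar1 at 12.5 and 12.3 against 14.2 and 13.8 RPKM (log2 difference 0.16, limma adjusted p = 0.617) and Ifngr1 at 149 and 134 against 180 and 161 (0.27, adjusted p = 0.410). Downstream of them, Irf9, which brings the type I signal to DNA, was at 39.4 and 43.8 RPKM in control and 55.02 and 52.9 in KO libraries (0.37, adjusted p = 0.221). Irf7, the factor that amplifies the type I response, had the largest difference of the sensing and signalling list, with 32.9 and 34.4 RPKM against 56.7 and 49.3 (log2 difference 0.64, SE 0.09, unadjusted p = 8.83e-05, adjusted p = 0.118). Usp18, which damps signalling at the type I receptor, was at 44.2 and 57.5 against 79.0 and 68.6. All of these except Ifng stood without overlap. Irf3, which is activated by phosphorylation more than by transcription, was the list's lowest member at 36.1 and 40.0 against 34.8 and 33.4 (-0.15). Of the 23 genes of this list, 10 were higher and 0 lower at an unadjusted p under 0.05, with a median of 0.21. Without KO 1 there were 4.

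The antiviral effectors held the largest differences of the 3 interferon lists. Ifi27l2a was at 21.5 and 23.6 RPKM in control and 46.7 and 35.96 in KO libraries (log2 difference 0.83, SE 0.12, limma adjusted p = 0.124). Ifit3, which binds viral RNA ends with its relatives, was at 2.89 and 3.23 against 6.66 and 5.73 (0.82, SE 0.13, adjusted p = 0.142). Oas1a, an enzyme that activates RNase L, was at 9.19 and 9.66 against 14.5 and 13.9 (0.54, SE 0.09, adjusted p = 0.142). Rtp4 was at 109 and 114 against 157 and 150 (0.46, SE 0.06, adjusted p = 0.124), and it lies on chromosome 16 within 500000 bases of Bcl6. The other tested genes in that window were Lpp (0.11) and its antisense gene Lppos (0.12). Isg15, a ubiquitin-like modifier, was at 125 and 143 against 174 and 158 RPKM (0.31), and Mx1 at 2.29 and 2.75 against 4.29 and 4.17 (0.57). In all 27 of 40 effectors were higher at an unadjusted p under 0.05 and 0 lower, 34 had both KO libraries above both controls, and the median was 0.32. Without KO 1 there were 14 of 39. Bst2, which tethers virus particles to the membrane, was abundant and stood the other way, with 312 and 309 RPKM in control and 294 and 292 in KO libraries (-0.08, adjusted p = 0.722).

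All 13 inducible GTPases, which attack the vacuoles of pathogens, had an unadjusted p under 0.05 and both KO libraries above both controls, with differences from 0.21 (Gbp4) to 0.66 (Iigp1) and a median of 0.31. Irgm1 was at 81.1 and 78.7 RPKM in control and 100.2 and 98.5 in KO libraries (log2 difference 0.31, SE 0.06, limma adjusted p = 0.197), and Gbp3 at 13.9 and 13.3 against 19.9 and 17.2 (0.42, SE 0.10, adjusted p = 0.270). None passed, and without KO 1 the count at an unadjusted p was 7. Several GTPases of this family are near copies of each other, so their values may share reads. MHC class I and antigen processing genes, which interferon also induces, were in part higher. Of 16 tested, 7 were higher and 0 lower at an unadjusted p under 0.05, with a median of 0.16, and 2 were higher without KO 1. The class I heavy chain gene H2-K1 was at 326 and 385 against 504 and 417 RPKM (0.37), the peptide transporter Tap1 at 55.5 and 61.9 against 79.2 and 70.1 (0.34), and B2m, the light chain, at 2749 and 2772 against 3356 and 3107 (0.23). Psme1, a proteasome activator gene, did not share this, at 411 and 420 against 424 and 399 (-0.01). Class I genes are also near copies of each other.

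Summed markers of other cell types were higher in the KO libraries beside these genes, though single members went both ways. The 7 NK and innate lymphoid markers summed to 606 and 641 RPKM in control and 799 and 708 in KO libraries, with 4 of 7 above 1 RPKM in all 4. Most of this sum was Gzma, a granzyme gene also seen in early thymocytes, at 362 and 376 against 495 and 449 RPKM (log2 difference 0.35, limma adjusted p = 0.189). Of 9 tested genes in a wider list of this type, Gzma and Gzmb (0.67) were higher and Xcl1, a chemokine gene, lower at an unadjusted p under 0.05, with a median of 0.11 that was -0.01 without control 1. Xcl1 was at 11.8 and 12.5 against 10.1 and 2.22 RPKM (-1.14), with KO 2 far below the other libraries, and Klrd1 (-0.23) and Il2rb (-0.15) were also below 0. The 4 gamma delta T markers summed to 32.4 and 30.7 against 43.1 and 42.2, and 3 of 4 were above 1 RPKM. The 6 myeloid markers summed to 25.1 and 18.8 against 33.7 and 37.4, and 3 of 6 were above 1 RPKM. Most of the myeloid sum was Lyz2, the lysozyme of macrophages, at 18.5 and 12.04 against 25.5 and 29.1 (0.83, SE 0.17, adjusted p = 0.221). The wider myeloid and dendritic list did not share this direction: of 13 tested genes 6 were above 0 and 7 below, with a median of -0.03. At an unadjusted p under 0.05, Lyz2 and the macrophage genes Adgre1 (0.57), Csf1r (0.43) and Fcgr3 (0.44) were higher, and the MHC class II genes H2-Aa (-0.58) and H2-Ab1 (-0.34) lower. The neutrophil gene S100a9 (-0.72), Cd74 (-0.48), which encodes the class II chaperone, and Mpo (-0.12), of granulocyte precursors, were below 0 as well. There were 2 higher and 0 lower without control 2, and 2 higher and 4 lower without KO 1. Mast cell markers (23.6 and 23.7 against 29.1 and 24.6), thymic epithelium markers (107.9 and 109.5 against 120.1 and 112.9) and endothelium markers (21.4 and 20.3 against 25.02 and 22.7) were also higher in both KO libraries, with 1 gene of each list above 1 RPKM in all 4. The part of other cells in the interferon result was not tested. In bulk libraries, fewer cells of a type and less RNA per cell cannot be told apart.

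**Figure D3:**
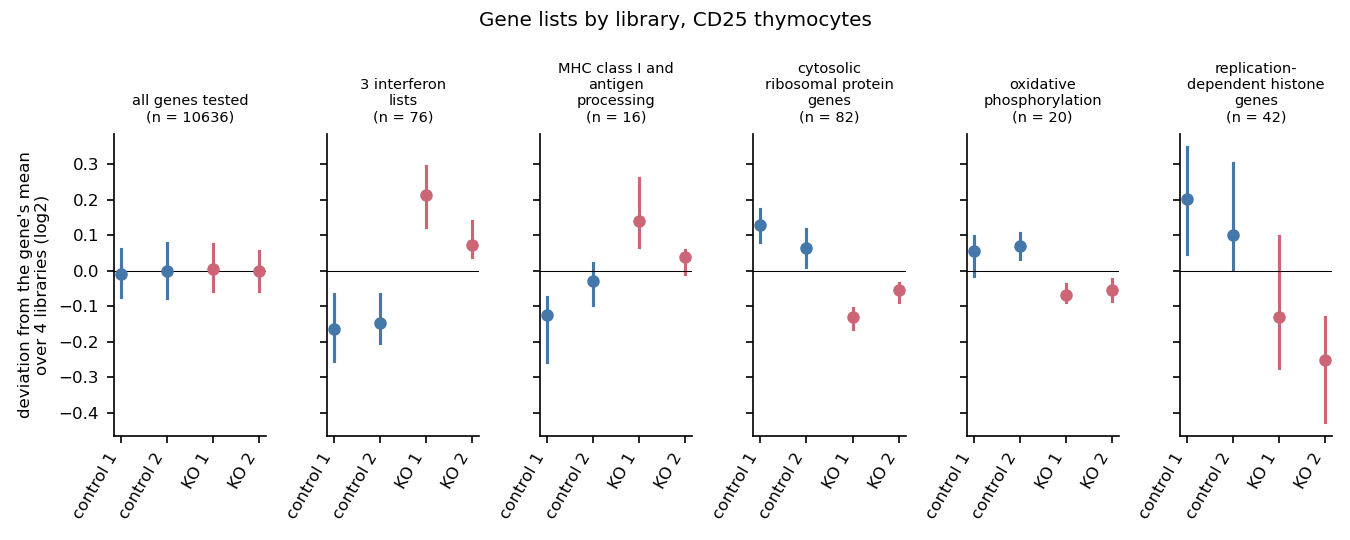
Deviation of each gene's log2(RPKM + 1) from its own mean over the 4 CD25 libraries (y axis), by library (x axis), for all genes tested and 5 groups of genes. Points are medians over genes and lines span the quartiles, blue for control and red for KO. The interferon median is at -0.16 and -0.15 in control, 0.21 in KO 1 and 0.07 in KO 2.

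Outside the interferon lists, several genes of the lymphocyte surface were among the 15 higher genes with the smallest p whose libraries did not overlap. Ly6a, which encodes SCA-1 and is itself inducible by interferon, was at 144 and 153 RPKM in control and 227 and 197 in KO libraries (log2 difference 0.51, SE 0.08, limma adjusted p = 0.142). Its relative Ly6c2 was at 2.43 and 1.93 against 6.76 and 5.01 (1.11, SE 0.16, adjusted p = 0.130). Cd163l1, a scavenger receptor gene expressed in gamma delta T cells, was at 14.98 and 15.5 against 23.5 and 23.1 (0.58, SE 0.08, adjusted p = 0.118), with the 2 libraries of each genotype close together. Also in this group were Shisa5 (83.5 and 80.8 against 119 and 110), Ms4a6b (51.5 and 53.8 against 77.1 and 68.9), Clec2i (23.3 and 23.1 against 30.5 and 32.7), a ligand of NK receptors, and Plekha5 (log2 difference 0.54). Mir6992 met the rule on 4 to 9 reads per library. Genes of homing and tissue position were higher in part. Of 15 tested, 4 were higher and 0 lower at an unadjusted p under 0.05, with a median of 0.13. Among these were Itgae, the alpha chain of the integrin that binds E-cadherin (8.88 and 7.62 against 12.5 and 13.9, log2 difference 0.62, adjusted p = 0.168), its partner Itgb7 (11.5 and 13.5 against 15.5 and 16.9), and Klf2, which drives genes of T cell exit.

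Klf2 also heads the genes that BCL6 represses in mature B and T cells. It was at 2.95 and 3.55 RPKM in control and 5.71 and 5.16 in KO libraries (log2 difference 0.60, SE 0.13, limma adjusted p = 0.237). The survival gene Bcl2 was at 12.9 and 12.8 against 18.4 and 15.99 (0.39, SE 0.10, adjusted p = 0.313). Of 23 tested genes of this list, 6 were higher and 1 lower at an unadjusted p under 0.05, with a median of 0.07 (all genes, 0.01). Without KO 1 there were 3 higher and 2 lower. Ifngr1 among the 6 is also in the interferon lists. The lower gene was Cdkn1b, the cell cycle inhibitor p27, at 5.76 and 4.33 against 3.05 and 2.97 (-0.58, adjusted p = 0.340). Of 20 BCL6 relatives, partners and corepressors, 1 was higher and 1 lower, with a median of -0.03, and 3 were lower without control 1 and 0 without KO 1 or KO 2. The higher was Zbtb20, a repressor of the same family, at 3.16 and 3.72 against 4.91 and 4.94 (0.42, adjusted p = 0.406). Tbl1x, a subunit of the NCOR complex, was the lower at 44.8 and 34.8 against 32.7 and 32.6.

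Genes of the stage itself gave small differences in both directions. Of 23 Notch pathway genes 2 were higher and 2 lower at an unadjusted p under 0.05, with a median of 0.04. The receptor gene Notch1 was at 117 RPKM in both control libraries and at 97.4 and 94.5 in KO (log2 difference -0.28, SE 0.06, limma adjusted p = 0.237), and Notch3, a further receptor gene, was lower in both KO libraries too (-0.22). Hes1, a target of Notch, stood the other way at 163 and 146 against 212 and 170 (0.30), as did Dtx3 (0.17). Without KO 1, 0 Notch genes were higher and 1 lower, and without control 1 the median was -0.02. Of 17 genes of the CD25-positive stage, 2 were higher and 2 lower, with a median of -0.01, and 0 were lower without control 2 or KO 2 and 1 each way without KO 1. Ptcra, the invariant chain of the pre-TCR, was at 778 and 850 against 730 and 761. Dntt, the polymerase that adds bases at rearranged junctions, was at 327 and 300 against 251 and 239 (-0.35, SE 0.07, adjusted p = 0.186) and was among the 15 lower genes with the smallest p. Of 22 T lineage commitment factors 3 were higher and 1 lower (5 and 1 without control 1, 1 and 0 without KO 1), with Gata3 at 29.4 and 35.5 against 41.2 and 38.5 (0.30) and its cofactor Zfpm1 at 7.34 and 7.49 against 5.50 and 6.13 (-0.31).

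Receptors and signals were also mixed. The list of T cell receptor subunits and proximal signals had 21 tested genes, of which 3 were higher and 1 was lower, with a median of -0.03. The counts were 5 and 4 without control 1 and 1 and 0 without KO 1, and the median was 0.04 without control 2. The adaptor gene Lat was at 398 and 487 RPKM in control and 569 and 543 in KO libraries (log2 difference 0.34, limma adjusted p = 0.391), and the kinase gene Txk at 12.7 and 12.5 against 16.9 and 15.3 (0.33). Of 17 cytokine receptor and STAT5 target genes, 5 were higher and 0 lower, with a median of 0.11 and 3 higher without KO 1. Among these, Socs3, a feedback inhibitor of cytokine signals, was at 25.6 in both control and 32.4 and 33.01 in KO libraries (0.34, SE 0.07, adjusted p = 0.221), and Il2rg, the shared cytokine receptor chain, at 221 and 247 against 289 and 278 (0.28, adjusted p = 0.349). Of 14 NF-kappaB pathway genes 0 were higher and 2 lower, with a median of 0.00, and 2 were higher and 1 lower without control 2 or KO 2. Nfkb2, the noncanonical subunit, was at 43.8 and 47.99 against 33.4 and 34.9 (-0.41, SE 0.08, adjusted p = 0.169). Of the 12 genes of the BCL2 family, Bcl2 was higher and the pore former Bak1 lower (2.68 and 2.71 against 1.33 and 1.71, -0.56, adjusted p = 0.371), and 2 were higher without control 1 or control 2.

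**Figure D4:**
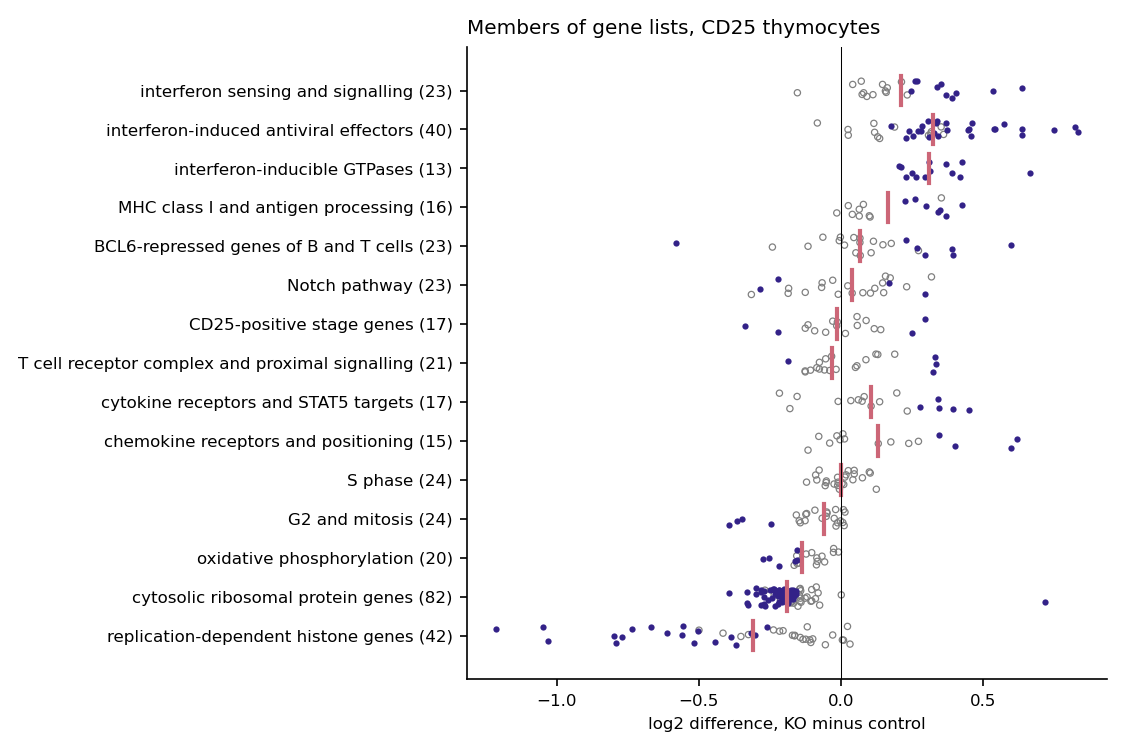
Log2 difference between KO and control in CD25 cells (x axis) for each tested member of 15 gene lists (y axis, number tested in brackets). Filled points have an unadjusted p under 0.05, open points do not, and red bars are list medians, which run from -0.31 for the histone genes to 0.32 for the antiviral effectors.

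Genes of translation and respiration were slightly lower. Of 82 cytosolic ribosomal protein genes 54 were lower and 1 higher at an unadjusted p under 0.05 (all genes, 4.35% and 4.79%), 71 had both KO libraries below both controls, and the median was -0.19. Rpl7a was at 318 and 317 RPKM in control and 262 and 260 in KO libraries (log2 difference -0.28, SE 0.06, limma adjusted p = 0.221), and Rps2 at 666 and 680 against 532 and 563 (-0.30). The higher gene was Rpl39l, a little-expressed paralog, at 1.73 and 1.28 against 4.10 and 2.31. This count depended on the KO libraries: it was 7 lower without KO 1 and 25 without KO 2, with medians of -0.16 and -0.23. All 20 genes of oxidative phosphorylation were below 0, 6 of them at an unadjusted p under 0.05 and 15 without overlap, with a median of -0.14. Ndufa1, a subunit of complex I, was at 365 and 351 against 290 and 301 (-0.28, adjusted p = 0.262), and Cox5b, of complex IV, at 314 and 343 against 281 and 269 (-0.25). Without KO 1 or KO 2 there were 2 lower genes at an unadjusted p under 0.05. Mitochondrial ribosomal protein genes had a median of -0.09, with 7 of 76 lower and 0 higher, a count that became 27 when control 1 was left out and 0 when control 2 was, and 3 or 2 when KO 1 or KO 2 was.

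Genes of these lists are short, and the difference varied with gene length. Its median was -0.06 in the shortest of 5 equal groups of the genes tested (42 to 1494 bases), 0.00, 0.02 and 0.04 in the next groups and 0.00 in the longest. After subtraction of the median of each gene's length group, the median difference was -0.15 for the cytosolic ribosomal protein genes, -0.10 for oxidative phosphorylation, -0.25 for the histone genes and 0.29 for the interferon lists. Whether RNA quality or library preparation differed between the genotypes was not tested. Among other single genes, Fabp5, a fatty acid carrier, was at 431 and 424 RPKM in control and 301 and 342 in KO libraries (log2 difference -0.41, SE 0.08, limma adjusted p = 0.169), and Nme2, a nucleoside diphosphate kinase, at 176 and 174 against 138 and 141 (-0.32).

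Genes of G2 and mitosis stood slightly lower in KO. Of 24 tested, 20 were below 0, 11 had both KO libraries below both controls (all genes, 18.4%), and 4 were lower and 0 higher at an unadjusted p under 0.05 (all genes, 4.35% and 4.79%), with a median of -0.06. Mki67, the proliferation marker, was at 43.9 and 37.8 RPKM against 31.8 in both KO libraries (log2 difference -0.35, limma adjusted p = 0.327), and the kinetochore genes Cenpa (-0.25), Cenpe (-0.39) and Cenpf (-0.37) were the other 3. There were 7 without control 1 and 2 without KO 1. Of 20 cholesterol synthesis genes 4 were higher and 1 lower, with a median of 0.11, and 2 were higher without control 2 or KO 1 and 1 without KO 2. Of 20 glycolysis genes 1 was lower (Gapdh, -0.27) and 0 higher, with a median of -0.03. Without control 1 there were 7 lower, and without control 2 the median was 0.03. Of 16 p53 targets 0 had an unadjusted p under 0.05 (3 were higher without control 1 and 1 without control 2), with a median of 0.07 and no adjusted p from limma under 0.05.

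The genotype difference in CD25 cells was set against that in the anti-CD3 cells by an interaction term in a fit of all 12 libraries (11303 genes). Stage, treatment and culture all differ between the populations, and Ddx3y separated the genotypes in the anti-CD3 cells while they overlapped in CD25. With groups by title, 0 genes passed for CD25 minus ISP (limma, 1105 at an unadjusted p under 0.05) and 1393 for CD25 minus DP, a count that was 628 without KO 1, 755 without KO 2 and 851 without control 2 of CD25. With groups by library name 3372 and 3477 passed, but there the ISP and DP differences set titled DP against titled ISP libraries. Of 115 named genes tested in CD25, 35 passed for CD25 minus DP by title, against 1393 of all 11303 genes. Many of the 115 were named by their CD25 difference, which is part of this contrast. That choice can raise their count, so the 2 shares are not a fair comparison. By library name, 18 of the 35 had the opposite sign, and 5 kept the sign and passed.

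The 3 interferon lists had a median of 0.31 in CD25. By title it was 0.39 in ISP and 0.49 in DP, with 67 and 61 of 76 genes above 0. By library name it was -0.05 and -0.14, with 33 and 31 above 0. Each ISP or DP value by library name in this paragraph sets titled DP against titled ISP libraries. Such values thus do not measure the genotype as titled. The cytosolic ribosomal protein genes had a median of -0.19 in CD25, of -0.04 and 0.25 in ISP and DP by title, and of -1.02 and -0.94 by library name. For oxidative phosphorylation the values were -0.14, then 0.00 and 0.26 by title and -0.39 and -0.41 by library name. The histone genes had -0.31, then -0.26 and 0.24 by title and -0.24 and -0.35 by library name. Among single genes, Klf2 differed by 0.60 in CD25 and, by title, by -0.98 in DP, a gap of 1.58 (SE 0.32, limma adjusted p = 0.0106) that was 2.28 by library name (adjusted p = 0.0111). Rps2, a ribosomal protein gene, had a gap of -0.71 by title (adjusted p = 0.00144) and of 1.18 by library name (adjusted p = 0.00356). Irf7 had gaps of -0.10 to ISP and -0.22 to DP by title and of 1.06 and 1.16 by library name, none of which passed (adjusted p = 0.925, 0.590, 0.164 and 0.127).

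**Figure D5:**
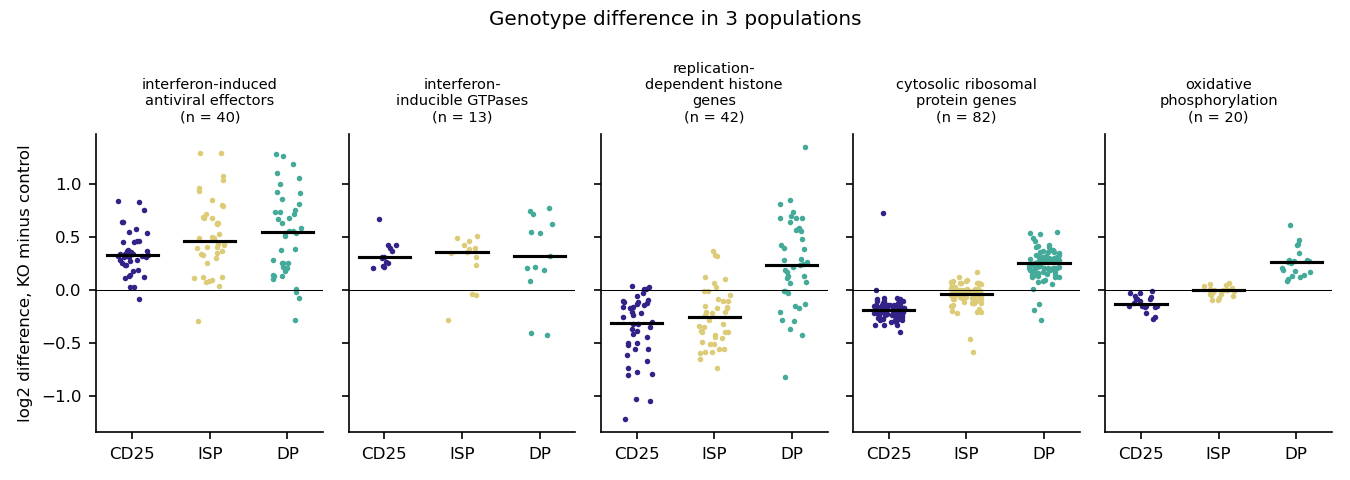
Log2 difference between KO and control (y axis) for each tested member of 5 gene lists in CD25, ISP and DP cells (x axis), with groups by title and black bars for the medians. The antiviral effectors have medians of 0.32, 0.46 and 0.54. With groups by library name, which set titled DP against titled ISP libraries, the values are -0.13 in ISP and -0.30 in DP.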

How the data were processed

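RNA of 12 sorted libraries was sequenced, and the 4 CD25 libraries were compared. The authors deposited RPKM per gene, aligned with BWA to GRCm38 per the submitters' processing notes. Counter, annotation and versions: not given in the sources used here. Of 24421 genes, 15785 were above 0 in a CD25 library, and 27 had names changed to dates. Low values came in steps of 1 read, and all 169595 values above 0 (100%) came out as whole reads within 0.02 reads. Reads summed to 10531581 to 13843254 per CD25 library. The deposited values were already on a common median-of-ratios scale, and no further scaling was applied.

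Groups follow the titles and genotypes. The log2(RPKM + 1) values of genes reaching 1 RPKM in 2 of 4 libraries were fitted in limma 3.58.1 (R 4.3.3), the prior variance following the mean level, with 2 residual degrees of freedom (prior 5.63). The script was tested on simulated data. The 43 gene lists (914 of 921 entries in the table), the cell type markers and the members were chosen with earlier results of these data known, and lists are described without a test. Named genes are Bcl6, Il2ra, Cd4, Cd8a, Cd8b1, Gh, Ddx3y, Xist, those that passed, the 15 higher and 15 lower with the smallest p whose genotypes do not overlap and whose higher side averages at least 5 RPKM (predicted genes and date-like names left out), and from each list its extremes and at most 4 genes, by smallest p; a few of these are not reported here. Rag1, Ptcra, Cd74, Mpo, Klrd1, Il2rb, Csf1r, Fcgr3, Recql5, Ifnar1, Ifngr1, Isg15, B2m, Mx1, the interferon ligand genes and the neighbours of Bcl6 and Smim5 were chosen after their values were seen. Positions are from GENCODE M21 and promoters from RefSeq, matched by symbol. Alternatives changed the pseudocount, filter, libraries, block, covariate, scaling, trend and value tested. Python 3.11.15, pandas 2.3.3, numpy 2.4.6 and matplotlib 3.10.9 were used.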

Additional observations from a re-analysis of the deposited data

Results flagged for a closer look

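For 35 genes named above or in the same lists, the KO minus control log2 difference in CD25 differed from that in DP by limma's interaction term with groups by title. The numbers in brackets are the CD25 difference minus the DP difference. With groups by library name, 17 had the same sign and 18 the opposite one. Cd4, Cd8a, Cd8b1 and Gh separate the anti-CD3 libraries as the titles do. By library name, the difference in DP is one of titled DP minus titled ISP libraries. Over all genes, 1393 of 11303 passed for CD25 minus DP by title. Many of the 35 were named by their CD25 difference, which is part of the contrast, so that choice can raise their number.

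Lower in CD25 than in DP under both assignments were Hist1h2ae (-1.51), Hist1h1e (-1.04), Hist2h4 (-2.14), Hist1h2ab (-0.91), Nfkb2 (-0.66), Mki67 (-0.69), Cenpa (-0.78), Cenpe (-0.63), Bak1 (-0.86), Hist1h4d (-0.54) and Hist1h1b (-1.34). Higher under both were H2-D1 (0.65), Klf2 (1.58), Shisa5 (0.35), Il2ra (0.78), Ms4a6b (0.69) and Clec2i (0.65). Of these, Hist1h1e, H2-D1, Klf2, Shisa5 and Ms4a6b also passed by library name. Both assignments use the same CD25 difference, so passing in both is not separate support. The genes whose sign turned with the library name were Rtp4 (-0.82), Fabp5 (-1.16), Nme2 (-0.91), Cox6a1 (-0.55), Rpl7a (-0.52), Rps2 (-0.71), Rps26 (-0.47), Ndufa1 (-0.55), Cox5b (-0.52), Zfpm1 (-0.68), Rps23 (-0.54) and Cox6c (-0.65), with negative differences by title, and Lat (0.45), Zbtb20 (1.16), Dtx3 (0.42), Rasgrp1 (0.68) and Il4ra (0.84), with positive ones. Ddx3y, a gene of the Y chromosome, had 4.62 by title and also turned. Its level reached at most 0.0979 RPKM in the 4 anti-CD3 libraries titled KO.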

How the results depend on the processing

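The direction of the named genes and list medians mostly held, while the count of genes that passed did not. Of 1817 values of 115 named genes under alternatives, 1707 kept direction and side of the threshold, 8 lost the call, 84 gained it and 18 changed sign. Only Smim5 and Hist1h2ae passed in the main fit, so most of the 1707 are of genes that did not pass in either fit. The 15 higher and 15 lower genes were chosen for libraries that do not overlap. Leaving out 1 library cannot change their sign, so that part of the count was fixed in advance. Of 622 medians of 39 lists under alternatives, 522 stayed within 1 SD between replicate libraries of the main value and 100 moved farther. The medians of the interferon, MHC, histone, cytosolic ribosomal protein and oxidative phosphorylation lists kept their sign in each alternative for the CD25 fit. Others changed sign without 1 library, among them Notch (-0.02 to 0.06), NF-kappaB (-0.09 to 0.11) and glycolysis (-0.10 to 0.03). The number of genes that passed was 1 with a pseudocount of 0.1, no filter, quantile normalization or the gene length dependence removed, 9 with all 12 libraries grouped by title (0 by library name), 12 with no trend, 14 with voom on recovered reads and 74 with the Ddx3y level as covariate, which leaves 1 residual degree of freedom. Leaving out 1 library gave 4 to 93 genes, and 495 to 1463 at an unadjusted p under 0.05. For CD25 minus ISP the count was 1 with a pseudocount of 0.1, 3372 with groups by library name and 0 to 2 without 1 library. For CD25 minus DP it was 3477 by library name and 628 to 1361 without 1 library. In these contrasts the groups by library name set titled DP against titled ISP libraries. Causes of the other changes were not tested.

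The difference of Bcl6 ran from -0.012 to 0.18 without 1 library. That of Recql5 ran from -0.070 to 0.071 without 1 library and was -0.016 with quantile normalization, -0.00392 with voom and -0.040 with the length dependence removed. Without 1 library, S100a9 ran from -1.95 to 0.52, Mpo from -0.73 to 0.49, Il2rb from -0.59 to 0.28, Cd4 from -0.071 to 0.29, Cd8b1 from -0.27 to 0.057, Ddx3y from -0.86 to 0.33 and Xist from -0.74 to 0.041. The 10-read filter, the length alternative and the list values by library name were chosen after seeing the data.

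Replicate numbers did not pair the libraries: control 1 minus control 2 and KO 1 minus KO 2 correlated at -0.0914 over 10636 genes. With the replicate number as a block, 3 genes passed, 788 had an unadjusted p under 0.05, and the counts were 0 for CD25 minus ISP and 1062 for CD25 minus DP. With 2 libraries a genotype, differences of genes at 1 to 5 RPKM had a median 95% half-width of 0.37, against 0.18 at 20 RPKM or more.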
